A study of Mus musculus with 8 samples.

Results

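DEAD and DEAH box RNA helicases were followed by RNA-seq in macrophages that had been sorted out of the left ventricle of mice. The members were chosen by name and level: their symbol begins with Ddx or Dhx and a number, and their mean over the 8 libraries was at least 1 TPM, a transcript abundance scaled for gene length and library total. Of 53 such symbols among 36708 gene IDs, 48 were members, 33 Ddx genes and 15 Dhx genes. The X and Y relatives Ddx3x and Ddx3y and the viral RNA sensor genes Ddx58 and Dhx58 were left out by rule, and Ddx25, a germ cell helicase gene, was left out at a mean of 0.000739 TPM. Just inside the minimum lay Ddx4, a germ cell marker gene, at 1.87 TPM and Ddx43 at 1.89 TPM. Mean level over all libraries chose the members, so their levels are described here without a test.

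The study transplanted bone marrow (BMT) into mice and asked how loss of the Y chromosome from blood cells affects the heart. The 4 LOY libraries are heart macrophages from mice given marrow of the genotype LOY (loss of Y), and the 4 control libraries are heart macrophages from mice given control marrow. The labels name the treatment of both groups as control and list no other agent. Each library was made from 6000 cells sorted as RFP+, CD45.2+, CD64+ and Ly6G- from the digested tissue. Not given in the sources used here are strain, age, how Y was lost, and whether each library is an animal of its own. The p-values therefore measure only how these samples vary, and that variation may be technical.

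RNA helicases use ATP to separate RNA strands or to strip proteins from RNA, and they act at nearly every step of an RNA's life. DEAD-box proteins open short duplexes locally, whereas DEAH-box proteins move along a strand and are often switched on by partner proteins that carry a G-patch. Both classes are named for a 4-letter amino acid motif, motif II, with which the enzyme binds and splits ATP. In macrophages members of the family splice and export transcripts, build ribosomes, store and degrade mRNA, and take part in sensing viral nucleic acid.

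Motif II was read from the coding sequences of GENCODE release M21, and a match was found in all 48 members. The search took DEAD, DEAH or DECD first and other letters only where none of these matched, so it favoured these letters. The sequences below show how the classes differ at the motif. Each is 36 coding bases 5′ to 3′, with the 12 bases of motif II in capitals, on GRCm38.
Ddx5, chr11:106785181-106785216, minus strand, exon 7, motif DEAD: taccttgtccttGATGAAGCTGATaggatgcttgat
Ddx17, chr15:79538863-79538898, minus strand, exon 7, motif DEAD: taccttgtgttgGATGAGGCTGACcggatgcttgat
Ddx39b, chr17:35247078-35247113, plus strand, exon 5, motif DECD: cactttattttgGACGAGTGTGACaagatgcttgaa
Ddx39, chr8:83721098-83721133, plus strand, exon 5, motif DECD: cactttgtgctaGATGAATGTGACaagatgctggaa
Ddx19a, chr8:110979074-110979109, minus strand, exon 8, motif DEAD: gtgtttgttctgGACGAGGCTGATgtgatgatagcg
Ddx19b, chr8:111011323-111011358, minus strand, exon 8, motif DEAD: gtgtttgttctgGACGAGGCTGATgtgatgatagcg
Dhx30, chr9:110087661-110087696, minus strand, exon 8, motif DEVH: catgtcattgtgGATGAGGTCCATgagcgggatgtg
Dhx57, chr17:80267520-80267555, minus strand, exon 9, motif DEVH: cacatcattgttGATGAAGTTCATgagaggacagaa
Dhx8, chr11:101752128-101752163, plus strand, exon 14, motif DEAH: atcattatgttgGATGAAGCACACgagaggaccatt
Dhx38, chr8:109556053-109556088, minus strand, exon 14, motif DEAH: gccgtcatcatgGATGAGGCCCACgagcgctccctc
Dhx16, chr17:35885496-35885531, plus strand, exon 10, motif DEAH: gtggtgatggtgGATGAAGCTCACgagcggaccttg
Dhx33, chr11:70999796-70999831, minus strand, exon 3, motif DEAH: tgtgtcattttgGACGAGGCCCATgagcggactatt
Dhx32, chr7:133742702-133742737, minus strand, exon 4, motif DDVH: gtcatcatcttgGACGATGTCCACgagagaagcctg

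The letters DEAD stood in 25 of the 33 Ddx genes, while 3 had DEVD, 2 DECD, 1 DESD, 1 DEAH (Ddx11) and 1 DEVH (Ddx60). Of the 15 Dhx genes 8 had DEAH, 4 DEVH, 2 DEIH and Dhx32 the letters DDVH. Motif II thus ended in histidine in 17 members and in aspartate in 31. The Ddx19a and Ddx19b stretches are identical, and over their aligned coding bases the 2 genes shared 93.2%. Dhx genes coded for longer proteins, with a median of 1144 residues, against 651 residues for Ddx genes.

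The Y-linked transcripts bear on how the libraries are read. The summed TPM of the Y genes Ddx3y, Eif2s3y, Kdm5d and Uty was 2.77, 46.4, 1.49 and 2.12 in LOY replicates 1 to 4, against 80.8 to 109 in the control libraries. LOY replicate 2 held 47.7% of the control mean, which goes against its label. The counts, the class medians and the 8 members with the smallest p are given below with and without it, and the other values include it. At 1 TPM or more, 11396 to 12139 genes were detected per library. TPM columns keep no read depth. Summed TPM of 10 macrophage markers was 35711 to 51548 in LOY and 39696 to 46556 in control libraries. Those of 8 cardiomyocyte markers were 109.0 to 235 in LOY and 86.3 to 177 in control, and of 6 endothelial markers 30.7 to 44.6 in LOY and 30.9 to 34.0 in control. Sums of 6 fibroblast markers were 20.2 to 36.9 in LOY and 21.2 to 36.1 in control, and of 6 neutrophil markers 0.686 to 8.98 in LOY and 1.53 to 16.6 in control. Sums of 6 T cell markers were 4.27 to 7.17 in LOY and 4.92 to 8.79 in control, and of 6 B cell markers 45.5 to 52.8 in LOY and 56.5 to 81.2 in control. At an unadjusted p under 0.05 in limma 3 of 10 macrophage genes and 1 of 7 cardiomyocyte genes tested (Myh6) were higher. So was 1 of 4 endothelial genes tested (Kdr), and 1 of 3 B cell genes tested (Cd79b) was lower. Of all genes tested, 19.3% were higher and 3.45% lower at this threshold. Only 4 of the 10 macrophage genes had a log2 fold change above 0, and the median of the 10 was -0.070. No marker was at 0 in all libraries, and the part of these cells in the results below was not tested. In sorted bulk samples a change in RNA per cell and a change in the mix of cells cannot be told apart.

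The share of family members with a small p was near that of all genes, and the 8 members with the smallest p were all Dhx genes, each with a higher mean in LOY libraries. They are Dhx30, Dhx57, Dhx8, Dhx38, Dhx16, Dhx33, Dhx35 and Dhx40. In limma on log2(TPM + 1) 0 of 48 members had a Benjamini-Hochberg adjusted p under 0.05, as did 0.0% of the 11725 genes tested, and the smallest adjusted p of a member was 0.179. At an unadjusted p under 0.05, 8 of 48 members (16.7%) were higher in LOY, against 19.3% of all genes, and 0 were lower, against 3.45% of all genes. All 4 LOY libraries lay above all 4 control libraries in Dhx30, Dhx57, Dhx35 and Ddx17, or 8.33% of members against 6.76% of all genes, and no member showed the reverse (2.61% of all genes). Both shares are near the background, so they are no result about the family as a whole. The log2 fold change was above 0 in 39 of 48 members, against 68.2% of all genes. Its median was 0.27 over members and 0.16 over all genes.

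**Figure D1:**
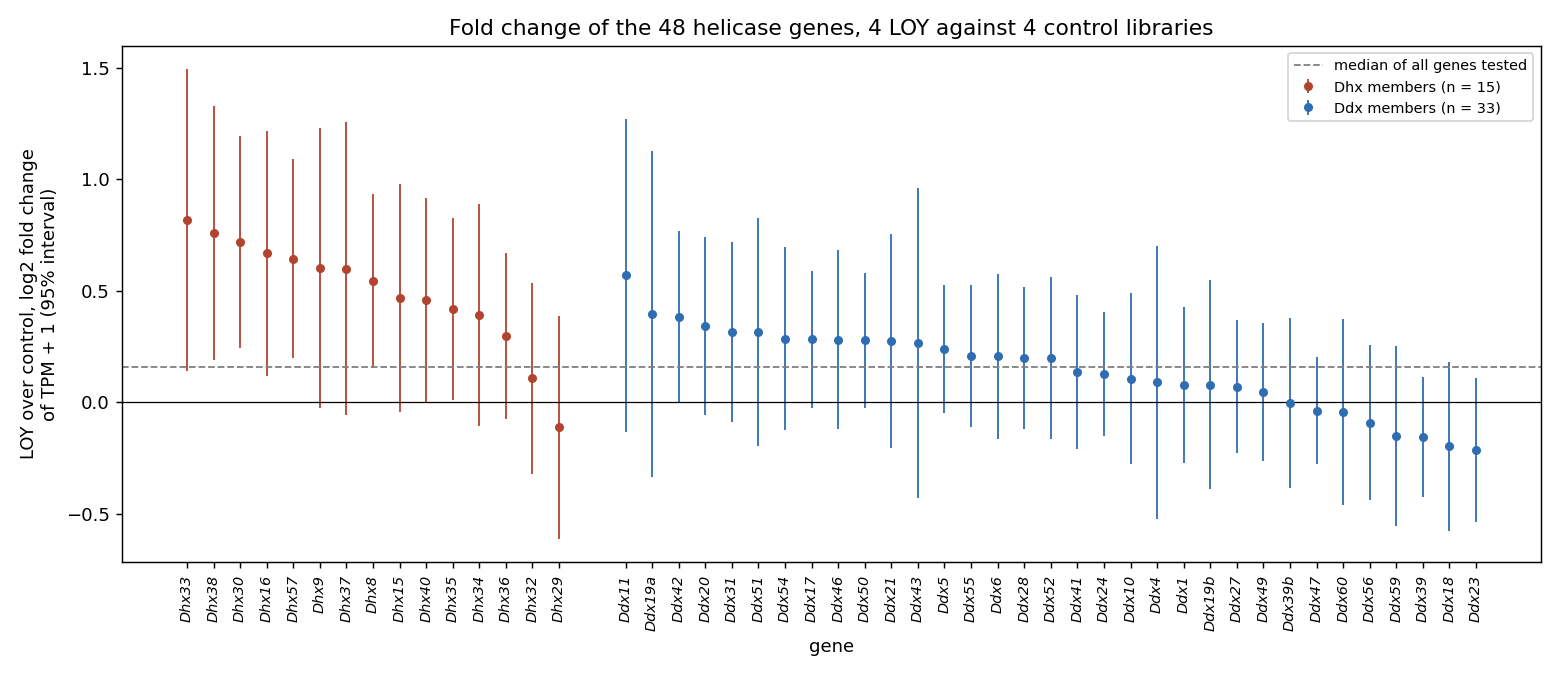
Log2 fold change of TPM + 1, LOY over control, on the vertical axis for the 48 helicase genes along the horizontal axis, Dhx genes in red and Ddx genes in blue, with limma 95% intervals from 4 LOY and 4 control libraries; the dashed line is the median of all genes tested, 0.16. The intervals of 8 Dhx genes lie above 0 and every Ddx interval reaches 0 or below.

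Counted by class, 8 of 15 Dhx genes and 0 of 33 Ddx genes were higher in LOY at an unadjusted p under 0.05 in limma, against 19.3% of all genes. The cut fell between close values. Dhx40 had a limma unadjusted p of 0.0495, and Ddx42, of the splicing group, 0.0511 (log2 fold change 0.38, interval -0.0022 to 0.77). The median log2 fold change was 0.54 for Dhx and 0.20 for Ddx genes, and 14 of 15 Dhx and 25 of 33 Ddx genes were above 0. Summed TPM of the Dhx genes was 257, 327, 285 and 329.7 in LOY replicates 1 to 4, against 271, 189, 149.7 and 237 in control replicates 1 to 4. The sum averaged 299.8 ± 34.9 TPM in LOY and 211.6 ± 53.0 TPM in control libraries (SD, n = 4 each), and control replicate 1 lay within the LOY range. Ddx genes summed to 1152 ± 68.2 TPM in LOY and 1071 ± 106 TPM in control libraries, groups that overlapped. Motif II ended in histidine in all 15 Dhx genes and also in Ddx11 and Ddx60. Sorting by that letter gave 8 of 17 genes ending in histidine and 0 of 31 ending in aspartate. These counts restate the counts by class and are no separate result. The division by class was made after these values were seen, and the difference between the classes was not tested.

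Spliceosome helicases held 5 of the 8 Dhx genes. In the splicing group of 15 members the median log2 fold change was 0.34, 12 members (80%) were above 0, against 68.2% of all genes, and 5 (33.3%) were higher at an unadjusted p under 0.05 in limma, against 19.3% of all genes. Dhx8, which releases the finished mRNA from the spliceosome, stood at 18.0, 25.1, 23.1 and 24.0 TPM in LOY replicates 1 to 4, against 19.0, 13.3, 11.9 and 16.8 TPM in control replicates 1 to 4. Only LOY replicate 1 lay inside the control range, and the group means were 22.6 ± 3.15 TPM in LOY and 15.3 ± 3.24 TPM in control (SD, n = 4 each). Its log2 fold change was 0.54 (SE 0.18, limma unadjusted p = 0.0111, adjusted p = 0.181). Dhx38, which remodels the spliceosome between its 2 chemical steps, had 15.4, 24.8, 20.3 and 19.2 TPM in LOY libraries and 16.6, 9.47, 6.84 and 14.4 TPM in control libraries. LOY replicate 2 was the highest and control replicate 3 the lowest, and control replicate 1 was above LOY replicate 1. The log2 fold change of Dhx38 was 0.76 (SE 0.26, limma unadjusted p = 0.0141, adjusted p = 0.181). Dhx16, which activates the spliceosome before the first step, had 22.5, 34.3, 29.5 and 32.2 TPM in LOY libraries and 25.1, 15.9, 11.0 and 23.9 TPM in control libraries. LOY replicate 1 lay within the control range and the other LOY libraries above it. The log2 fold change was 0.67 (SE 0.25, limma unadjusted p = 0.0219, adjusted p = 0.182).

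Dhx35, found with spliceosomes that have begun catalysis, had 10.4, 8.87, 9.25 and 10.8 TPM in LOY libraries and 7.87, 7.98, 4.82 and 8.21 TPM in control libraries. The groups did not overlap, and control replicate 3 stood apart below the other controls. Its log2 fold change was 0.42 (SE 0.18, limma unadjusted p = 0.0452, adjusted p = 0.213). Without control replicate 3 it was 0.26, and the unadjusted p stayed under 0.05 in 2 of the 8 limma fits that each left out 1 library. Dhx40, a little-studied relative, had 14.0, 16.9, 13.4 and 23.1 TPM in LOY libraries and 13.8, 12.8, 8.59 and 12.3 TPM in control libraries. LOY replicate 4 was high and the other LOY libraries lay close to the upper controls. Its log2 fold change was 0.46 (SE 0.21, limma unadjusted p = 0.0495, adjusted p = 0.219), and it was 0.30 without LOY replicate 4. Dhx15, which takes the spent spliceosome apart, had 48.0, 77.8, 59.1 and 72.0 TPM in LOY libraries and 60.9, 45.1, 28.9 and 53.3 TPM in control libraries. These groups overlapped, and the log2 fold change was 0.47 with an interval of -0.044 to 0.98 (limma unadjusted p = 0.069, adjusted p = 0.246).

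Ddx members of the splicing group lay closer to 0. Ddx5, a splicing and transcription cofactor and the most abundant member, had 273, 272, 212 and 256 TPM in LOY libraries and 216, 236, 182 and 223 TPM in control libraries. LOY replicate 3 lay within the control range, and the log2 fold change was 0.24 (SE 0.13, limma adjusted p = 0.278). Its close relative Ddx17 had 10.8, 11.4, 11.2 and 13.5 TPM in LOY libraries and 10.1, 8.74, 9.37 and 9.52 TPM in control libraries. All LOY libraries lay above all control libraries, by a narrow margin, and the log2 fold change was 0.28 (SE 0.14, limma unadjusted p = 0.068, adjusted p = 0.244). Ddx39b, which loads export factors onto spliced mRNA, had 48.6, 65.6, 69.5 and 70.2 TPM in LOY libraries and 73.4, 69.3, 46.6 and 66.0 TPM in control libraries, with groups that covered the same range. Ddx39, its relative in mRNA export, had 87.8, 101, 97.4 and 77.0 TPM in LOY libraries and 94.0, 99.5, 97.2 and 114 TPM in control libraries. The log2 fold change of Ddx39 was -0.16 (SE 0.12, limma adjusted p = 0.432), and 17.4% of its exon bases are shared on the opposite strand with Adgre5, at a mean of 135 TPM. The library kit keeps no strand, so reads from the shared bases cannot be told apart. Ddx41, linked to splicing and to DNA sensing, had 84.8, 62.2, 62.9 and 58.9 TPM in LOY libraries and 54.3, 56.1, 57.1 and 76.6 TPM in control libraries. One library in each group stood above the others, and the log2 fold change was 0.14 (SE 0.16, limma adjusted p = 0.606). An antisense gene covers 17.4% of the exon bases of Ddx41. The other members with over 10% of exon bases shared with a gene on the opposite strand were Ddx49 (29.8%, with Homer3), Ddx43 (15.9%) and Ddx54 (14.2%).

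**Figure D2:**
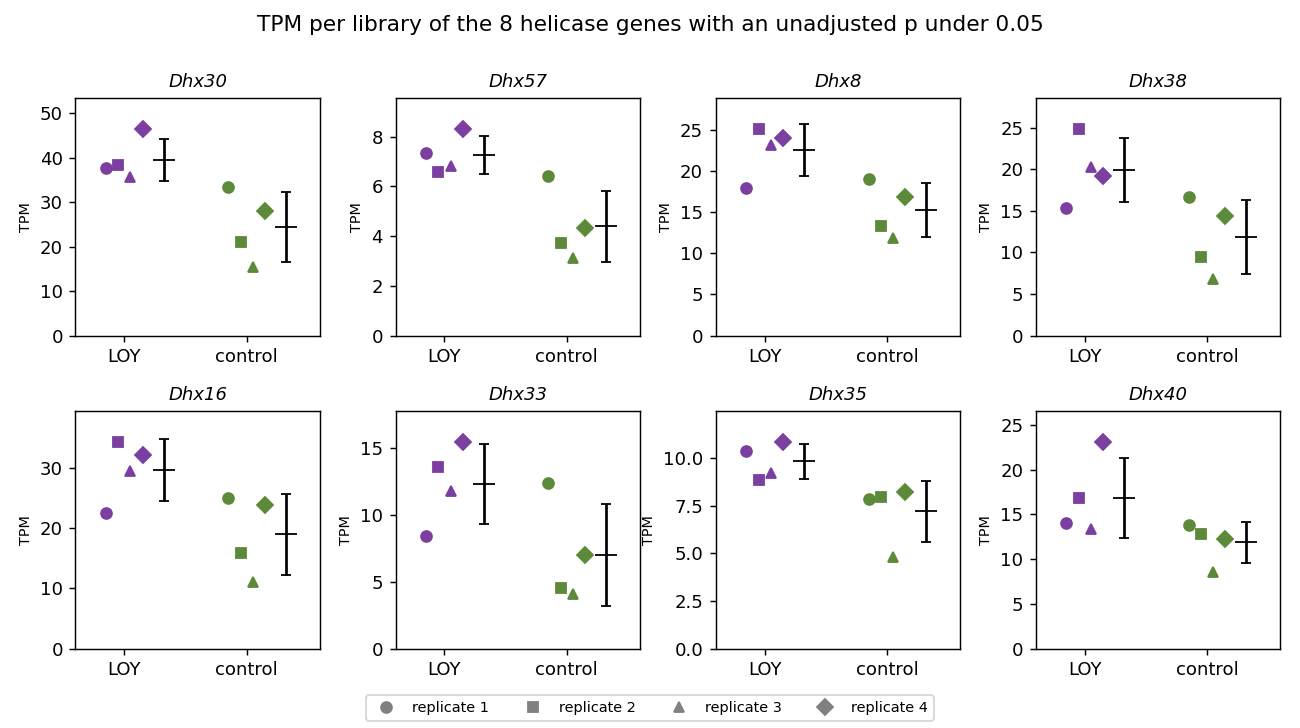
TPM on the vertical axis in each library for the 8 helicase genes with an unadjusted p under 0.05, LOY libraries in purple on the left of each panel and control libraries in green on the right, a symbol per replicate number; the cross and bar beside the points are the mean and SD of 4 libraries. In Dhx30, Dhx57 and Dhx35 the groups do not overlap, control replicate 3 is the lowest library in all 8 panels, and control replicate 1 lies above LOY replicate 1 in Dhx8, Dhx38, Dhx16 and Dhx33.

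The mitochondrial pair held the member with the smallest p. Dhx30, needed for assembly of mitochondrial ribosomes and found in mitochondrial RNA granules (GRCm38 chr9:110084320-110117830, minus strand), had 37.6, 38.3, 35.7 and 46.4 TPM in LOY replicates 1 to 4, against 33.5, 21.0, 15.5 and 27.9 TPM in control replicates 1 to 4. Every LOY library lay above every control library, with control replicate 1 the nearest. It averaged 39.5 ± 4.71 TPM in LOY and 24.5 ± 7.88 TPM in control (SD, n = 4 each), a log2 fold change of 0.72 with an interval of 0.24 to 1.19 (limma unadjusted p = 0.00713, adjusted p = 0.179). Ddx28, its DEAD-box counterpart in mitochondrial ribosome assembly, stood 0.20 higher on the log2 scale (SE 0.14, limma adjusted p = 0.402) and spanned 13.1 to 19.2 TPM over all libraries.

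In the group of mRNA export, translation and decay, with 8 members, 1 (12.5%) was higher at an unadjusted p under 0.05 in limma, against 19.3% of all genes, and the median log2 fold change was 0.25. That member was Dhx57, a large and less studied DEAH protein (GRCm38 chr17:80238309-80290476, minus strand), with 7.33, 6.56, 6.83 and 8.30 TPM in LOY libraries and 6.43, 3.71, 3.14 and 4.31 TPM in control libraries. The groups did not overlap, though control replicate 1 came within a small step of LOY replicate 2. It averaged 7.26 ± 0.765 TPM in LOY and 4.40 ± 1.44 TPM in control (SD, n = 4 each), and the log2 fold change was 0.64 (SE 0.20, limma unadjusted p = 0.00901, adjusted p = 0.179). Ddx6, the P-body helicase that represses and helps decap mRNA, had 25.9, 24.9, 22.1 and 28.1 TPM in LOY libraries and 29.6, 18.4, 18.7 and 21.8 TPM in control libraries. Control replicate 1 held the highest value, and the log2 fold change was 0.21 (SE 0.17, limma adjusted p = 0.451). Dhx36, which unwinds G-quadruplexes in mRNA, had 9.54, 11.8, 11.5 and 11.5 TPM in LOY libraries and 10.8, 7.37, 7.46 and 10.01 TPM in control libraries. The groups overlapped through LOY replicate 1 and control replicates 1 and 4, and the log2 fold change was 0.30 (SE 0.17, limma adjusted p = 0.296). Dhx29, which helps ribosomes scan structured leaders, was the Dhx gene with a log2 fold change below 0, at -0.11 (SE 0.22, limma adjusted p = 0.778).

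Ddx19a and Ddx19b help release mRNA at the nuclear pore. Ddx19a had 3.76, 5.04, 5.52 and 7.55 TPM in LOY libraries and 8.90, 2.97, 2.51 and 2.86 TPM in control libraries. Control replicate 1 was the highest of all libraries, whereas the other 3 controls lay below every LOY library. The log2 fold change was 0.40 with all libraries (SE 0.33, limma adjusted p = 0.463), and 0.75 without control replicate 1 (limma adjusted p = 0.0429). Ddx19b had 3.16, 5.71, 5.35 and 4.63 TPM in LOY libraries and 4.66, 4.11, 3.19 and 5.62 TPM in control libraries. Its log2 fold change was 0.079 (SE 0.21), with groups that overlapped across their range. The coding sequences of these genes are much alike, and whether counting split reads between them was not tested.

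Of 16 members in ribosome biogenesis 13 (81.2%) had log2 fold changes above 0, against 68.2% of all genes, with a median of 0.20. At an unadjusted p under 0.05 in limma 1 (6.25%) was higher, against 19.3% of all genes. It was Dhx33, which acts in ribosomal RNA synthesis, with 8.40, 13.6, 11.8 and 15.4 TPM in LOY libraries and 12.4, 4.52, 4.10 and 6.97 TPM in control libraries. Control replicate 1 lay inside the LOY range, and the other controls lay below all LOY libraries. Its log2 fold change, 0.82 (SE 0.30, limma unadjusted p = 0.0226, adjusted p = 0.182), was the highest among members. Dhx37, required for maturation of the small ribosomal subunit, stood 0.60 higher on the log2 scale (SE 0.30, limma unadjusted p = 0.0701, adjusted p = 0.247), with 10.9 TPM in LOY replicate 3 and 4.25 to 5.42 TPM in the other LOY libraries. Ddx21, a nucleolar helicase that couples ribosomal RNA transcription to processing, had 7.32, 12.1, 7.67 and 9.63 TPM in LOY libraries and 8.97, 7.09, 5.01 and 8.65 TPM in control libraries. Its relative Ddx50 had 31.1, 36.7, 28.3 and 36.5 TPM in LOY libraries and 27.0, 30.5, 23.3 and 27.7 TPM in control libraries. Both sets of groups overlapped, and the log2 fold changes were each 0.28 (limma adjusted p = 0.437 for Ddx21 and 0.243 for Ddx50). Ddx47, which acts in early ribosomal RNA processing, had 89.1, 77.8, 75.4 and 83.0 TPM in LOY libraries and 78.1, 84.0, 79.1 and 92.9 TPM in control libraries. It was the steadiest member, with an SD of 7.36% of its mean over the 8 libraries, and its log2 fold change was -0.038 (SE 0.11).

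Nucleic acid sensing and interferon response held 2 members. Ddx60, an interferon-induced cofactor of viral RNA sensors, had 69.4, 81.2, 67.3 and 46.8 TPM in LOY libraries and 71.4, 54.5, 60.6 and 84.7 TPM in control libraries. These groups covered the same range, and the log2 fold change was -0.042 (SE 0.19, limma adjusted p = 0.905). Dhx9, a nuclear helicase of RNA and DNA that also takes part in sensing, had 7.24, 18.4, 10.2 and 17.0 TPM in LOY libraries and 7.52, 8.46, 5.70 and 10.2 TPM in control libraries. LOY replicates 2 and 4 were high while LOY replicate 1 lay below 3 of the controls, and the log2 fold change was 0.60 with an interval of -0.023 to 1.23 (limma unadjusted p = 0.0576, adjusted p = 0.23). The remaining 5 members, the DNA helicase gene Ddx11, the germ cell genes Ddx4 and Ddx43, and the less studied Ddx59 and Dhx32, had log2 fold changes of -0.15 to 0.57 with a median of 0.11, and none reached an unadjusted p under 0.05 in limma.

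The Dhx genes had a common pattern between libraries, in part shared by other genes. Control replicate 3 was the lowest library for 13 of 15 Dhx genes and 15 of 33 Ddx genes, and LOY replicates 2 and 4 were the highest for 6 and 5 Dhx genes. Relative to each gene's mean, the median Dhx deviation on the log2 scale was -0.028, 0.31, 0.23 and 0.37 in LOY replicates 1 to 4, against 0.12, -0.43, -0.68 and -0.021 in control replicates 1 to 4. The median of all genes deviated by 0.028 to 0.13 in LOY libraries and by -0.24 to 0.062 in control libraries, and it too was lowest in control replicate 3. The median Dhx deviation was thus higher in control replicate 1 than in LOY replicate 1. The single genes differed, and Dhx30, Dhx57, Dhx35, Dhx40, Dhx32 and Dhx29 were higher in LOY replicate 1. Control replicate 1 also stood above LOY replicate 1 for Upf1 (21.9 against 12.6 TPM) and Snrnp200 (23.0 against 12.9 TPM), helicase genes with other names. Both were lowest in control replicate 3, at 4.16 and 7.37 TPM. Of the same list, Eif4a1 was lowest in control replicate 4 and Eif4a3 in LOY replicate 1. How many of all genes were lowest in control replicate 3 was not counted. Ddx genes had medians of 0.063, 0.15, 0.029 and 0.070 in LOY libraries and 0.035, -0.10, -0.27 and 0.12 in control libraries.

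**Figure D3:**
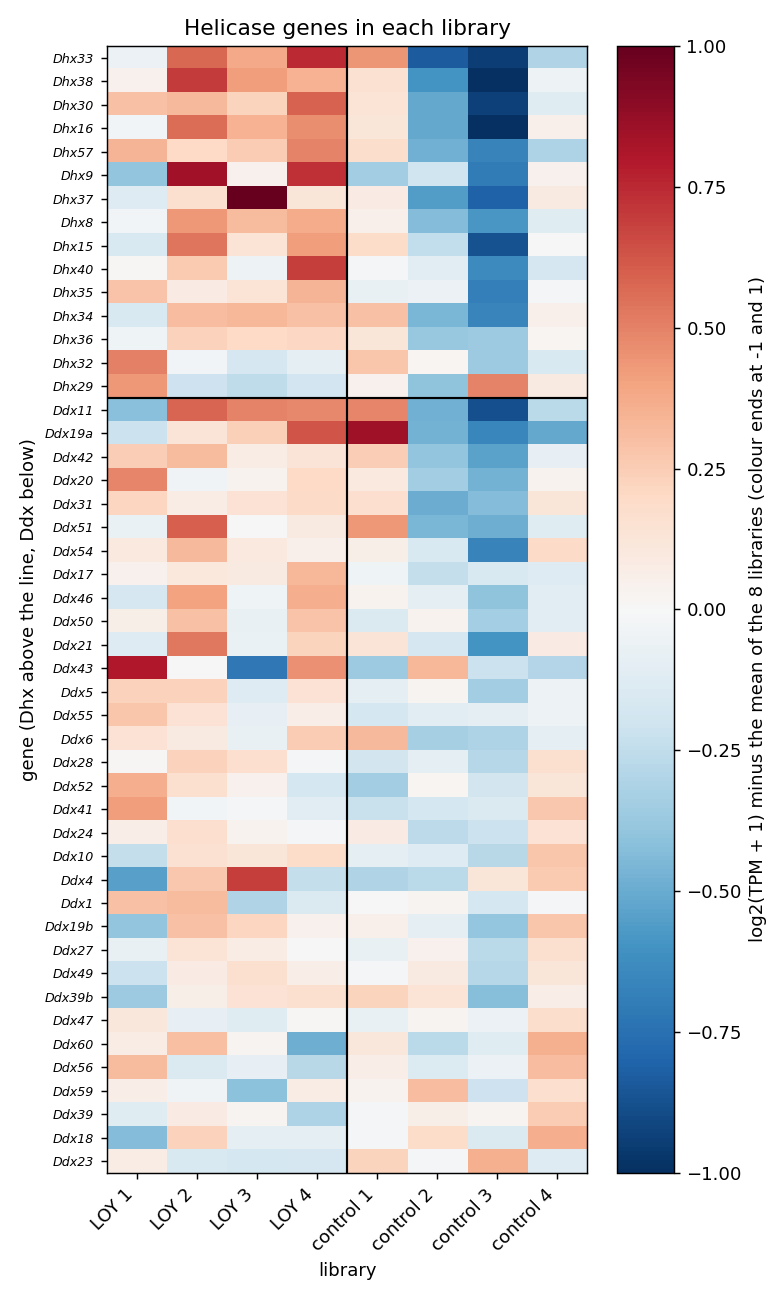
Each cell is the log2(TPM + 1) of a helicase gene in a library minus the gene's mean over the 8 libraries, red above and blue below with colours ending at -1 and 1, with LOY libraries on the left and control libraries on the right, Dhx genes above the horizontal line and Ddx genes below. Control replicates 2 and 3 are blue for most Dhx genes, with a median deviation of -0.43 and -0.68, while control replicate 1 is mostly red.

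Single libraries set how many Dhx genes passed. Without LOY replicate 2, the library that kept Y transcripts, 4 of 48 members were higher at an unadjusted p under 0.05 in limma, against 11.4% of all genes, and the median log2 fold change was 0.46 for Dhx and 0.15 for Ddx genes. The count was also 4 without LOY replicate 4, without control replicate 2 and without control replicate 3, where 10.5%, 10.9% and 9.93% of all genes were called. It was 19 without control replicate 1, against 29.5% of all genes, and 11, 9 and 9 without LOY replicate 1, LOY replicate 3 and control replicate 4, against 21.0%, 17.1% and 17.1%. The same 4 genes, Dhx30, Dhx57, Dhx8 and Dhx38, kept an unadjusted p under 0.05 in all 8 of these fits. Without LOY replicate 2 the log2 fold change was 0.73 for Dhx30, 0.69 for Dhx57, 0.49 for Dhx8 and 0.65 for Dhx38. Without it the limma unadjusted p was 0.0592 for Dhx16 (log2 fold change 0.59), 0.0540 for Dhx33 (0.76), 0.0550 for Dhx35 (0.46) and 0.0919 for Dhx40 (0.45). Over the 8 fits the unadjusted p was under 0.05 in 4 for Dhx16, 4 for Dhx33 and 3 for Dhx40. Without control replicate 1, 8 members passed after Benjamini-Hochberg adjustment in limma, against 14.9% of all genes called higher. They were Dhx57 (adjusted p = 0.0176), Dhx33 (0.0179), Dhx30 (0.0189), Dhx38 (0.0290), Dhx8 (0.0323), Ddx42 (0.0396), Ddx19a (0.0429) and Dhx16 (0.0469). With a weight estimated for each library, lowest for LOY replicate 1 and highest for control replicate 2, 21 members were higher at an unadjusted p under 0.05 in limma, against 33.6%, and 12 of them after adjustment, against 23.5%. Over the 8 leave-outs the limma adjusted p of Dhx30 ranged between 0.0189 and 0.402, and that of Dhx57 between 0.0176 and 0.402.

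Transcript length moved with the fold change in these libraries. Over 11663 genes with a length, Spearman's rho between log2 fold change and the longest annotated transcript was 0.49, and it was 0.33 over the 48 members, 0.25 over Dhx and 0.28 over Ddx genes. These are descriptions across genes, which share libraries and are not independent. Dhx transcripts had a median length of 4463 bases, Ddx transcripts of 3516 bases and all genes tested of 3180 bases. Among transcripts of 4000 bases or more the median log2 fold change was 0.60 for 10 Dhx and 0.28 for 14 Ddx genes, and among shorter transcripts it was 0.46 for 5 Dhx and 0.11 for 19 Ddx genes. When genes were sorted into 20 bins of length, 12 of 15 Dhx genes and 9 of 33 Ddx genes lay above the all-gene median of their bin. With a trend on length and GC content removed in each library, 2 members, Dhx30 and Dhx57, were higher at an unadjusted p under 0.05 in limma, against 7.67% of all genes. Their log2 fold changes were then 0.31 and 0.30, against 0.72 and 0.64 without that step. Ddx23, a spliceosome helicase, Ddx39 and Ddx47 were lower, against 7.75%. The median was then 0.25 for Dhx, -0.046 for Ddx and -0.0095 for all genes.

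**Figure D4:**
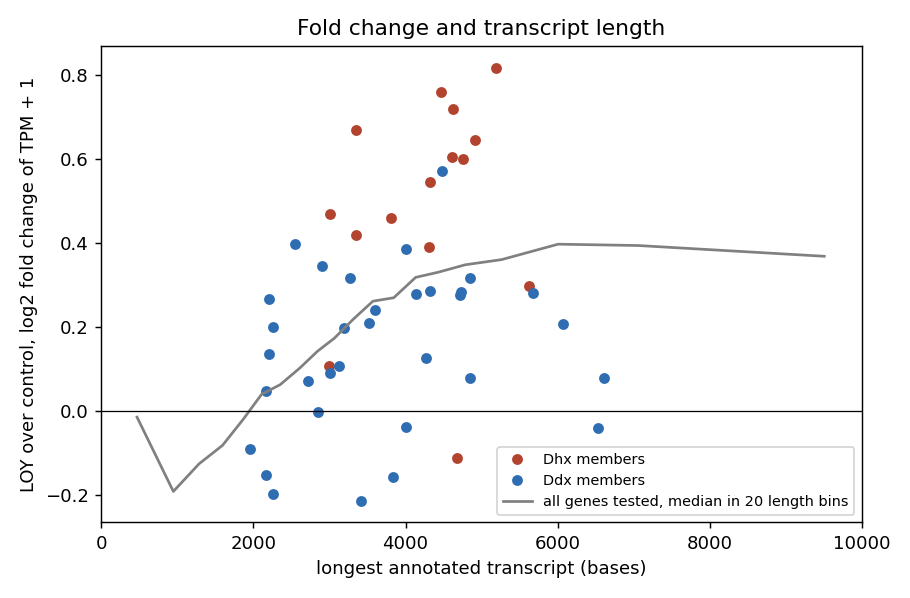
Log2 fold change of TPM + 1, LOY over control, against the length of the longest annotated transcript in bases, for Dhx genes in red and Ddx genes in blue; the grey line joins the medians of all genes tested in 20 bins of length. 12 of 15 Dhx genes and 9 of 33 Ddx genes lie above the median of their length bin.

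Changing how the libraries are scaled shifted all genes. Median-of-ratios scaling put the median of all genes at 0.00053, against 0.16 as reported, and quantile normalization moved it to -0.016. After the first, 6 members were higher at an unadjusted p under 0.05 in limma, against 10.8% of all genes, and Ddx18, Ddx23 and Ddx39 were lower, against 11.0%. After the second, the same 6, Dhx16, Dhx30, Dhx33, Dhx38, Dhx57 and Dhx8, were higher, against 9.74%, and Ddx18, Ddx23 and Ddx59 were lower, against 9.7%. The Dhx median was 0.37 under median-of-ratios scaling and 0.33 under quantile normalization, and the Ddx median was 0.024 and -0.030.

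The authors' deposited table holds its own comparison of the same libraries, LOY over control. In it, the authors' deposited table, 2 members had an adjusted p under 0.05, Dhx57 (0.0388, log2 fold change 0.84) and Dhx33 (0.0393, log2 fold change 0.97), against 4.34% of the genes tested here called higher. None was lower, against 0.103%. At an unadjusted p under 0.05 the authors' deposited table had 9 members higher, all Dhx genes, against 23.8%, and 0 lower, against 0.828%. They were Dhx57, Dhx33, Dhx30, Dhx38, Dhx37, Dhx9, Dhx8, Dhx16 and Dhx40. In the authors' deposited table the median of the log2 fold change was 0.58 for Dhx genes, 0.20 for Ddx genes and 0.21 for all genes tested here, and 15 of 15 Dhx genes were above 0. Dhx29 stood at 0.37 in the authors' deposited table, against -0.11 in limma on TPM, and Ddx1, Ddx39b, Ddx49 and Ddx60 also differed in sign between these analyses. The mean count per library in the authors' deposited table ran between 105 for the lowest member and 19334 for the highest, with a median of 1282.

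**Figure D5:**
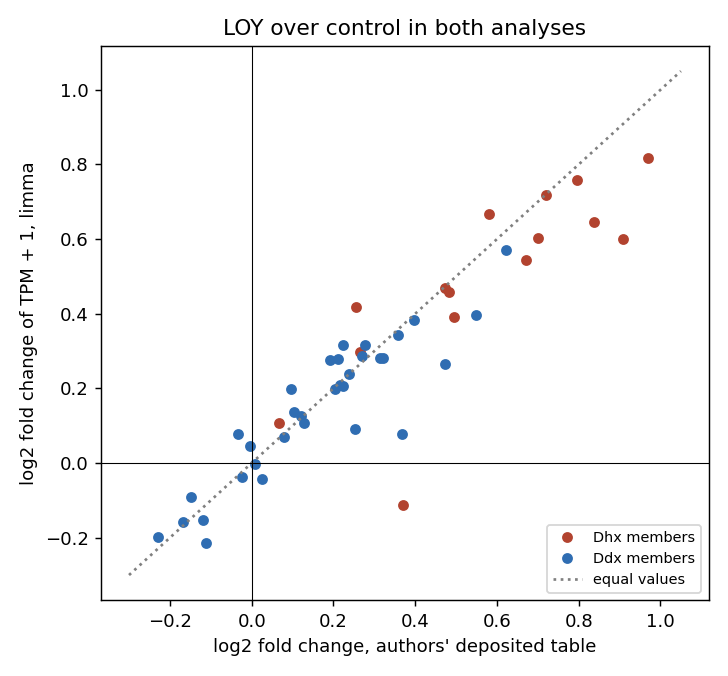
Log2 fold change of TPM + 1 from limma on the vertical axis against that of the authors' deposited table on the horizontal axis, both LOY over control, Dhx genes in red and Ddx genes in blue, with equal values on the dotted line. All 15 Dhx genes lie right of 0 on the horizontal axis, and Dhx29, at 0.37 and -0.11, lies farthest below the line.

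Ratios between paralogs, taken on log2(TPM + 1), did not differ beyond the spread between libraries. The log2 ratio of Ddx17 over Ddx5 averaged -4.32 ± 0.212 in LOY and -4.36 ± 0.197 in control libraries, and that of Ddx39 over Ddx39b 0.52 ± 0.298 in LOY and 0.67 ± 0.304 in control libraries. Ddx19a over Ddx19b averaged 0.17 ± 0.321 in LOY and -0.15 ± 0.675 in control libraries, and Ddx50 over Ddx21 averaged 1.76 ± 0.176 in LOY and 1.76 ± 0.268 in control libraries (SD, n = 4 each). Exact two-sided permutation over 70 assignments gave p from 0.4 to 1, and from 0.952 to 1 after Benjamini-Hochberg adjustment over the 4 pairs. The aligned coding bases of these pairs were identical at 71.2% (Ddx17 and Ddx5), 81.2% (Ddx39 and Ddx39b), 93.2% (Ddx19a and Ddx19b) and 72.1% (Ddx50 and Ddx21).

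Levels spanned a wide range within the family. Ddx5 averaged 233.8 TPM over the 8 libraries, 17.1% of the 1367 TPM that all members summed to. Ddx39 at 96.0, Ddx47 at 82.4, Ddx60 at 67.0 and Ddx41 at 64.1 TPM followed, and the median member stood at 17.7 TPM. The SD over the 8 libraries was 20.0% of the mean in the median member and 54.4% in Ddx43, the most variable. The X-linked Ddx3x, left out of the list, had 31.7 ± 7.23 TPM in LOY and 27.1 ± 7.13 TPM in control libraries (SD, n = 4 each, log2 fold change 0.23, SE 0.22, limma adjusted p = 0.535). Its Y-linked copy Ddx3y had 3.99 ± 6.71 TPM in LOY and 21.0 ± 4.47 TPM in control libraries, with 14.0 TPM in LOY replicate 2.

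Promoters of 250 bases before and 50 after the start were found in RefSeq (GRCm38.p6) for 43 members, 14 Dhx and 29 Ddx. They held a median of 24 CpG, against 7 in all 32851 promoters. A member was counted for a motif if any of its promoters held it, with 54 promoters in all. The share beside each count is of single promoters, not of genes, and was not matched for CpG. The ETS motif CCGGAAG, searched on both strands like the others, was present for 19 of the 43 members (8 of 14 Dhx, 11 of 29 Ddx), against 8.86% of all promoters. The interferon-stimulated response element (ISRE) was present for Ddx60 and Ddx49, against 3.44%. CCAAT was found for 22 members against 37.4%, CACGTG for 6 against 7.15%, TGACGTCA for 5 against 1.79%, TATAAA for 5 against 13.6%, the NRF1 motif for 2 against 0.971%, and the heat shock element for 0 against 0.603%. Examples follow 5′ to 3′, with those motifs in capitals. Dhx30 and Dhx35 are members whose groups did not overlap, and Ddx60 is the interferon-induced member, with a fold change near 0. The promoter of Dhx57, whose groups did not overlap either, held none of these motifs. Nor did the other Dhx30 promoter, at chr9:110101038-110101337. Whether motifs go with the fold changes was not tested.
Dhx30, chr9:110117567-110117866, minus strand, 1 ETS match: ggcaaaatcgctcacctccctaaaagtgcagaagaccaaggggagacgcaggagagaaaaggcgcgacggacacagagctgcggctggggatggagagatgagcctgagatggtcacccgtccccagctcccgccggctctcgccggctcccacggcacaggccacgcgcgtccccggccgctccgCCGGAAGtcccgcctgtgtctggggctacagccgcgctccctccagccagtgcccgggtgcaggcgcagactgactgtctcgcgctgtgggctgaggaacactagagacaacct
Dhx35, chr2:158794557-158794856, plus strand, a CCAAT box, 2 E-boxes and an ETS match: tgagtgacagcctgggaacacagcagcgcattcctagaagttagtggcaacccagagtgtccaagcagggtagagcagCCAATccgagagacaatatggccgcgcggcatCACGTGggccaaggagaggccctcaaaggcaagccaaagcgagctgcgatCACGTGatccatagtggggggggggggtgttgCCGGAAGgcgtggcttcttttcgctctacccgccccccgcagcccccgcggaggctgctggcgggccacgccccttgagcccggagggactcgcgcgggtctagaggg
Ddx60, chr8:61927837-61928136, plus strand, a CCAAT box, 2 ISRE matches and a TATA box: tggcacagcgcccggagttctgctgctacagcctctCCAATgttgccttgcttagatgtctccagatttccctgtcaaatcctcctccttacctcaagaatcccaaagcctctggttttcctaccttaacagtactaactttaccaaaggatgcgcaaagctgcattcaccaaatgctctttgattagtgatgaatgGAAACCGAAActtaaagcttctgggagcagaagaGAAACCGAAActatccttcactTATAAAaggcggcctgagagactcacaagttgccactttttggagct

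Lists of partner genes followed the same comparison. The G-patch list held 21 genes, and some G-patch proteins activate DEAH helicases. Of the 21 genes, 8 had an unadjusted p under 0.05 in limma with a higher mean in LOY and 1 with a lower mean. The shares of all genes were 19.3% and 3.45%, and the median log2 fold change of the list was 0.31. The G-patch genes with the smallest p were Zgpat, at 25.9 ± 2.95 TPM in LOY and 15.7 ± 4.69 TPM in control libraries, and the splicing regulator gene Rbm10, at 21.8 ± 2.06 TPM in LOY and 14.4 ± 3.45 TPM in control libraries (SD, n = 4 each, limma adjusted p = 0.179 for both). Of 23 decapping and CCR4-NOT partners of Ddx6, 12 were higher and 0 lower, with a median of 0.35. They were led by Atxn2, which encodes a partner of Ddx6 in RNA granules, at 36.5 ± 4.40 TPM in LOY and 16.6 ± 7.63 TPM in control libraries (limma adjusted p = 0.179), and by Eif4enif1, which links Ddx6 to the cap-binding protein. Of 19 RNA helicases with other names 6 were higher and 0 lower, with a median of 0.37, among them the translation initiation helicase gene Eif4a2 (log2 fold change 0.41, SE 0.15) and the spliceosomal Aqr (0.55, SE 0.21), both with a limma adjusted p of 0.18.

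Other partners lay near or below the median of all genes. Of 38 spliceosome core proteins 2 were higher and 3 lower by the same threshold, against 19.3% and 3.45% of all genes. Their median log2 fold change was 0.015. Sf3a1, part of the branch site complex, had 0.56 (SE 0.19), and Snrpb2, a U2 protein gene, -0.36 (SE 0.13). Of 44 ribosome biogenesis factors 4 were higher and 4 lower, with a median of -0.0066, where Ebna1bp2 had -0.41 (SE 0.12) and Utp15 0.54 (SE 0.19). Of 17 mRNA export partners 3 were higher and 1 lower, with a median of -0.024, where Zc3h11a had 0.76 (SE 0.16) and Nxf1, the main export receptor gene, 0.58 (SE 0.16). No gene of these lists passed after adjustment. Median transcript lengths were 3698 bases in the G-patch list, 4216 bases in the decapping list and 5470 bases in the list of other helicases, against 3032 bases in the spliceosome, 3292 bases in the ribosome and 3299 bases in the export list, and the part of length in these counts was not tested. Of 14 interferon-induced genes 2 were higher and 0 lower, against 19.3% and 3.45% of all genes, with a median of 0.20. The 2 were the RNA-sensing enzyme gene Oas2 (1.06, SE 0.28) and Cmpk2 (0.71, SE 0.25). Of 12 genes of cell isolation stress 2 were higher and 0 lower, against the same shares of all genes, with a median of 0.061. The 2 were the chaperone genes Hsph1 (1.54, SE 0.26) and Hspa8 (0.65, SE 0.17). The part of this stress in the helicase values was not tested.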

How the data were processed

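Macrophages were sorted from digested mouse hearts, cDNA was amplified with a SMART-Seq kit and libraries made with Nextera XT, per the labels' protocols. The submitters' processing notes name STAR 2.5.2b, Subread 1.5.2 with featureCounts, Trimmomatic 0.36, bcl2fastq 2.17, mm10 and GRCm38. With a tool not given in the sources used here, TPM per gene and library were made and deposited by the authors, per the file headers. The authors' deposited table also holds a log2 fold change, its standard error and a test statistic (scores), a p-value and an adjusted p. Each baseMean score in it is a whole multiple of 1/8 (tolerance 1e-06), as a mean of 8 counts is, so it is called a mean count. These means show no scaling between libraries, and whether the authors' fold changes were scaled was not tested. Its WT and KO columns were read as control and LOY from their names.

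Genes averaging 1 TPM or more were kept, 156 that repeated the values of another ID were removed, and 11725 were tested, the 48 members among them. limma 3.58.1 in R 4.3.3, with its trend and robust settings, set LOY against control on log2(TPM + 1), two-sided, with Benjamini-Hochberg adjustment over all genes tested and a threshold of 0.05. Fold changes on this scale understate the change of low genes. The fit was tested on simulated data. TPM keep no depth, so no counting error is given. Ratios were tested by exact permutation. Motif II and coordinates came from GENCODE release M21 (GRCm38), promoters from RefSeq. Alternatives are other pseudocounts, filters, scalings, fits and leave-outs. Counts by class were added after the data were seen.

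Members and lists were chosen with earlier results of these data known. Members were named with every library where their groups did not overlap, where they led in level, belonged to a paralogous pair or were preset (Ddx6, Dhx9, Dhx15, Dhx36, Ddx60, Ddx41), 18 in all. A further 5, those with an unadjusted p under 0.05, and others named with fewer values were added after their values were seen. Replicate numbers are not stated to pair the libraries, and the main fit did not pair them.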

Additional observations from a re-analysis of the deposited data

Results flagged for a closer look

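Of 46 groups of 4 libraries checked, 5 held a library far from the other 3 of its group, where chance flags about 1 in 20 groups. Dhx35 had 4.82 TPM in control replicate 3, against 7.87 to 8.21 TPM in the other control libraries. Ddx19a had 8.90 TPM in control replicate 1, against 2.51 to 2.97 TPM in the other control libraries. Dhx36 had 9.54 TPM in LOY replicate 1, against 11.5 to 11.8 TPM in the other LOY libraries. Ddx41 was flagged in both groups, with 84.8 TPM in LOY replicate 1, against 58.9 to 62.9 TPM in the other LOY libraries, and 76.6 TPM in control replicate 4, against 54.3 to 57.1 TPM in the other control libraries.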

How the results depend on the processing

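Depth is unknown here, and 4 libraries a group limit what can be called. Leaving out 1 library at a time gave 0 to 8 members with an adjusted p under 0.05 in limma, and 4 to 19 higher (4 to 12 Dhx, 0 to 7 Ddx) without adjustment. It gave median log2 fold changes of 0.18 to 0.30 over members, 0.43 to 0.64 over Dhx and 0.12 to 0.22 over Ddx genes. Groups did not overlap in 4 to 12 members higher and 0 to 1 lower. Of all 11725 genes this held for 826 to 2914 higher and 360 to 717 lower. The 12 members and the 2914 genes both came without control replicate 1. Library weights gave 12 members past adjustment, against 23.5% of all genes called higher, and 21 higher without it (9 Ddx). The length and GC trend removed gave 2 higher (2 Dhx) and 3 lower, and quantile normalization and median-of-ratios scaling 3 lower each. Each of the 3 left 1 member whose groups do not overlap, higher in LOY. Among all genes this held for 418 of 11663 with the trend removed. It held for 469 of 11725 with quantile normalization and 474 with median-of-ratios scaling. In the order quantile, median-of-ratios, length and GC, the median was 0.012, 0.11 and -0.018 over members, 0.33, 0.37 and 0.25 over Dhx, and -0.030, 0.024 and -0.046 over Ddx genes. A pseudocount of 5 gave a Dhx median of 0.39. Without a filter, and without the trend and robust options, 1 Ddx gene, Ddx17, had an unadjusted p under 0.05. The replicate number as a block gave 12 members higher without adjustment, 3 of them Ddx, against 17.7% of all genes, and 0 past adjustment. The deviations of same-numbered libraries correlated at -0.030, -0.15, 0.039 and -0.072. These values show no pairing by number but cannot exclude a weak one.

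Of the 48 members, 22 had a log2 fold change above 0 with the length and GC trend removed, 27 with quantile normalization and 30 with median-of-ratios scaling, against 39 as reported. Among the members whose values in every library are given, those that turned sign with the length and GC trend removed were Ddx17 (-0.046), Ddx19b (-0.28), Ddx21 (-0.033), Ddx6 (-0.11) and Dhx36 (-0.018). Among the same members they were Ddx19b (-0.16) and Ddx6 (-0.0051) with quantile normalization, Ddx19b (-0.068) and Ddx41 (-0.044) with median-of-ratios scaling, and Ddx39b (0.020) and Ddx60 (0.071) with library weights. Over the leave-outs the log2 fold change lay between -0.037 and 0.22 for Ddx19b, -0.14 and 0.12 for Ddx39b, -0.083 and 0.013 for Ddx47, and -0.15 and 0.11 for Ddx60. LOY minus control ratios turned to -0.022 for Ddx50 over Ddx21 with a pseudocount of 0.1 and to -0.025 for Ddx17 over Ddx5 with a pseudocount of 5. Over the leave-outs they lay between -0.038 and 0.12 for Ddx17 over Ddx5, 0.11 and 0.64 for Ddx19a over Ddx19b, -0.26 and -0.025 for Ddx39 over Ddx39b, and -0.089 and 0.087 for Ddx50 over Ddx21. The cause of these changes was not tested. Of the other values of single members, 399 kept their direction and their side of the adjusted p threshold, and 16 newly passed it. No member passed it as reported, so none could be lost. Unadjusted calls were lost in some leave-outs, as given above. Of the values of the summaries over these alternatives, 179 stayed as reported, 42 moved and 9 reversed direction.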
